A study of Mus musculus with 6 samples.

Results

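The Notch receptors and their classical ligands were followed as 8 genes in mRNA sequencing counts of mouse alveolar type II cells. The genes were taken by symbol: the receptors Notch1, Notch2, Notch3 and Notch4, the Jagged ligands Jag1 and Jag2, and the Delta-like ligands Dll1 and Dll4. All 8 were present among the 23337 gene symbols counted in each library. Type II cells make surfactant and act as progenitors of the flat type I cells that cover most of the alveolar surface. The mutant genotype was SpC-CreER/Dlk1flox/ROSA-Tomato. The wild-type group was SpC-CreER/ROSA-Tomato, so both groups carried a Cre recombinase driven by the surfactant protein C promoter, which is active in type II cells, and a red Tomato reporter. Both groups received acute lung injury with Pseudomonas aeruginosa, and flow cytometry was used to collect the Tomato-positive cells. The time is given as 10 days after injury, while one protocol also mentions culture for 8 days, and the labels do not settle whether the sorted cells were cultured. The age of the mice and the way Cre was induced are not reported here. Each group had 3 libraries, all run on a single flow cell per the labels. The extract protocol and the series design text name different sequencers, so the sequencing run is not settled. Whether the libraries of a group came from separate animals is not stated, and the p-values then describe only the spread among libraries, which may be technical.

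Notch receptors are single-pass membrane proteins that are cut when a ligand on a neighbouring cell pulls on them, after which the intracellular part enters the nucleus and turns on target genes with the DNA-binding protein RBPJ. Jagged and Delta-like proteins are the activating ligands, and DLK1, the product of the floxed gene, is related to them but lacks the domain that activating ligands use to bind the receptor. In the lung, Notch signalling is known for setting the balance between secretory and ciliated airway cells. Notch3 is best known from smooth muscle cells and pericytes of vessels, and Notch4 and Dll4 from the endothelium.

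Library totals ran from 22511461 to 30695994 counts. The targeted gene Dlk1 had at most 2 counts in any library of either group, so its counts did not check the labels. Type II cell markers were abundant in all libraries, with a summed level of 129174 to 142158 CPM (counts scaled to the library total) in the mutant and 138023 to 160022 CPM in the wild-type group for 10 genes. Mutant 1 stood apart from the other libraries: of 12 marker lists for cells other than type II and type I cells, all 12 had their highest sum there, at 1.51 to 36.4 times the highest other library. The part of these cells in the Notch gene values was not tested, and in a bulk library fewer cells of a type and less RNA per cell cannot be told apart.

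The 250 bases before the annotated RefSeq start of the 4 receptor genes are printed so that the promoters of the abundant receptors Notch1 and Notch2 can be set beside those of the rare receptors Notch3 and Notch4. They are from RefSeq on build GRCm38.p6, 5′ to 3′ on the strand of the gene, with each CpG dinucleotide in capitals. The counts were made on another build, and no count was read by these coordinates.
Notch1, chr2:26503823-26504072, minus strand: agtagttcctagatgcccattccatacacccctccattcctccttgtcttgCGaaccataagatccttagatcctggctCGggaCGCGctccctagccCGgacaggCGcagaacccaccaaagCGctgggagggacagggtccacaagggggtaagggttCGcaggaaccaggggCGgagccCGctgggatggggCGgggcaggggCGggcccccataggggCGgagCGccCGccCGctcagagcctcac
Notch2, chr3:98013288-98013537, plus strand: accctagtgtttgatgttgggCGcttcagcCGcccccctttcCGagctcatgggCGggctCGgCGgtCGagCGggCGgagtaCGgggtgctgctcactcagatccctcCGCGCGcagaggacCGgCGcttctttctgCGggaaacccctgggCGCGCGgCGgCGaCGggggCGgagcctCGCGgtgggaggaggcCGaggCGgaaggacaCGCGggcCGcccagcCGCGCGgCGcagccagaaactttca
Notch3, chr17:32166891-32167140, minus strand: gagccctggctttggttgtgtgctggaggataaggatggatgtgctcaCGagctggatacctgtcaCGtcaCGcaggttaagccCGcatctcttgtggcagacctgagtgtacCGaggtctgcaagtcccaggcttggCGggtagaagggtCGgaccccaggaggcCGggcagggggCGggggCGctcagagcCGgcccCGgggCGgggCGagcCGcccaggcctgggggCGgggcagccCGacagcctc
Notch4, chr17:34564045-34564294, plus strand: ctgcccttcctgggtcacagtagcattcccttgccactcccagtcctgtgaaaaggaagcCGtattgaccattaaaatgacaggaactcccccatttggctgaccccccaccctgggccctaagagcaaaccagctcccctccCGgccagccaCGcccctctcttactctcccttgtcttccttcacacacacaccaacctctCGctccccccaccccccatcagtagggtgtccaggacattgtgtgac

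The Notch4 sequence held 4 CpG dinucleotides, against 16 for Notch1, 34 for Notch2 and 17 for Notch3. Over 32807 promoters of the same length the median was 6, and 44.4% held 4 or fewer, while 76.5% held no more than Notch1, 97.0% no more than Notch2 and 78.3% no more than Notch3, so CpG number did not follow the split into abundant and rare receptors. The ligand promoters held 20 CpGs for Jag1, 54 for Jag2, 14 for Dll4, and 21 and 13 for the 2 annotated starts of Dll1. Of the 8 genes, Notch4 therefore had the fewest before its RefSeq start. Bases just after each start were looked up in the GENCODE transcript used for lengths, where an offset of 25 means the same start. The offset was 25 for Notch1, Notch2 and Dll4. Offsets of 52 for Notch4, 149 for Jag1, 178 for the first Dll1 start and 306 for Jag2 place these starts inside that transcript. Part or all of their 250 bases may be transcribed there. No match was found for Notch3 and the second Dll1 start. The GC-box letters GGGCGG, searched on both strands, were found 5 times before Notch1, 5 times before Notch2, 4 times before Notch3 and 0 times before Notch4, and 32.7% of all promoters held them. AGGAAG, which contains the GGAA core bound by ETS factors and was also searched on both strands, was found 3 times before Notch4 and 0 times before the other receptors, and 29.5% of all promoters held it. CGGAAG, another form with that core, was found 1 time before Notch2 and 0 times before the other receptors, and 13.6% of all promoters held it. TGGGAA, the core letters of an RBPJ site, was found in 0 of the promoters of the 8 genes on either strand, against 21.6% of all promoters. The RBPJ core and both ETS forms have the letters GGAA in common, and a match describes letters, not binding.

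The receptor transcripts of these cells were almost all Notch1 and Notch2. Notch1 was at 127.8 CPM in mutant 1, 127.03 in mutant 2 and 120.6 in mutant 3, and the wild-type libraries 1 to 3 held 106.97, 116.6 and 113.1 CPM. The mutant values were each above the wild-type values, but the gap between the lowest mutant and the highest wild type was smaller than the spread within either group. Notch2 was at 186.4 CPM in mutant 1, 125.6 in mutant 2 and 150.3 in mutant 3, and the wild-type libraries held 165.2, 152.8 and 148.5 CPM. Its mutant values enclosed the wild-type values, with mutant 1 highest and mutant 2 lowest of all libraries. Together Notch1 and Notch2 made up 99.2% to 99.5% of receptor counts in the libraries other than mutant 1 and 96.3% in mutant 1. Relative to each other they varied: mutant 2 had 1.01 Notch1 counts per Notch2 count, mutant 1 had 0.69, mutant 3 had 0.80, and the wild-type libraries had 0.65, 0.76 and 0.76.

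Notch3 and Notch4 were counted in every library, at low levels in 5 and at a higher level in mutant 1. Notch3 had 276 counts in mutant 1, and 20 and 22 in mutants 2 and 3. The wild-type libraries held 24, 38 and 27. The level of 8.99 CPM in mutant 1 (95% Poisson interval 7.96 to 10.1) was 5.99 times that of wild type 2, the next library, at 1.50 CPM. Notch4 had 96 counts in mutant 1, and 15 and 18 in mutants 2 and 3. Its wild-type counts were 10, 18 and 22. Its level of 3.13 CPM in mutant 1 (2.53 to 3.82) was 3.54 times that of wild type 3, at 0.88 CPM. Both genes were thus highest in mutant 1 beyond counting error. In mutants 2 and 3 Notch3 was at 0.84 (0.52 to 1.30) and 0.78 (0.49 to 1.18) CPM, below each wild-type library (1.07 to 1.50 CPM). Those counting intervals overlapped the wild-type ones, such as 0.68 to 1.59 CPM in wild type 1. For Notch4 mutants 2 and 3 (0.63 and 0.64 CPM) lay within the wild-type range of 0.44 to 0.88 CPM. Such intervals, and the floor of 3 counts (0.0977 to 0.133 CPM) that a count of 0 allows, cover counting error only.

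Of the 8 genes, Notch3 was the one at least 5 times as high in mutant 1 as in each other library, where 3.65% of all tested genes met that rule. Mutant 1 was the highest library for 6 of the 8 (Notch1, Notch2, Notch3, Notch4, Jag2 and Dll4), against 37.2% of tested genes. For Notch1 the excess was 1.01-fold and for Notch2 1.13-fold. After TMM scaling, which corrects for composition and lowered the values of mutant 1, its Notch1 was 0.93 times the highest other library and its Notch2 1.03 times. By the rule of at least 1 CPM in all 6 libraries, Notch1, Notch2, Jag1, Jag2, Dll1 and Dll4 counted as expressed throughout, Notch3 reached 1 CPM in 4 libraries and Notch4 in mutant 1 alone. Counting error leaves this split unsettled near 1 CPM. In wild type 1 the intervals of Dll1 and Dll4 began at 0.94 and 0.97 CPM, and in wild type 3 that of Notch4 reached 1.34 CPM.

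**Figure D1:**
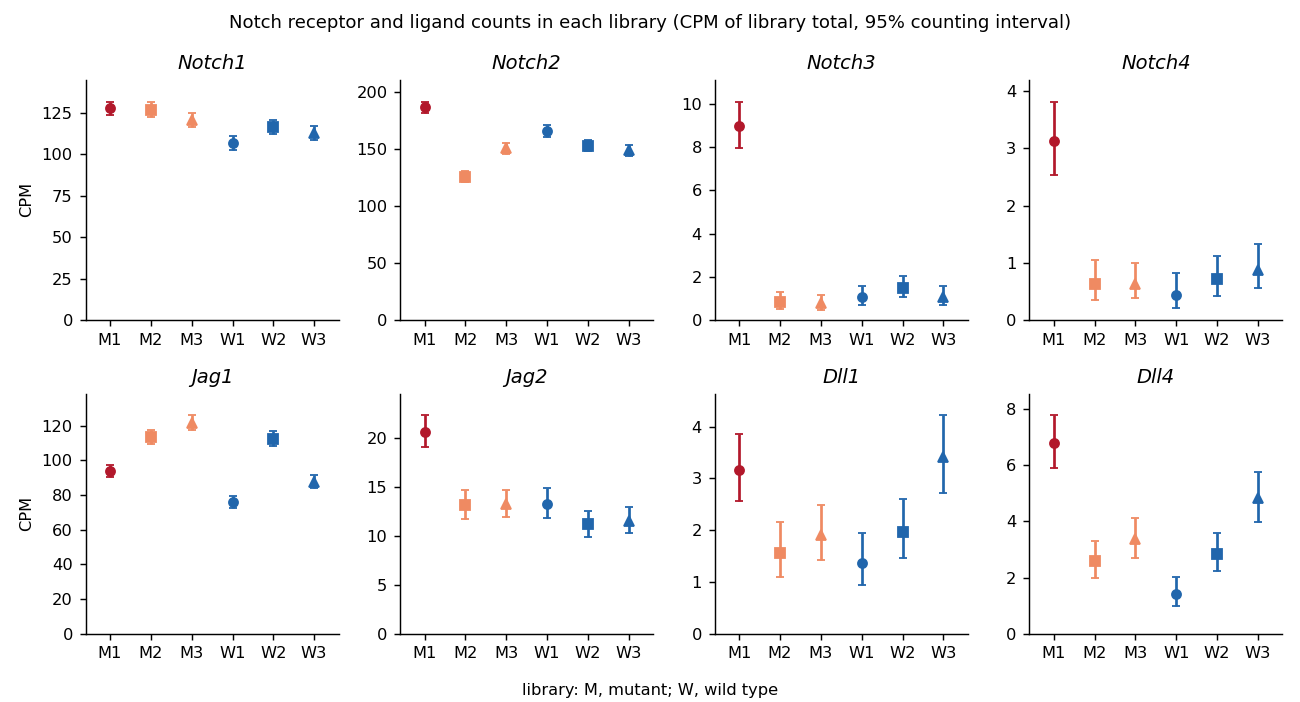
CPM of each Notch receptor and ligand gene in each library (M1 to M3, mutant; W1 to W3, wild type), 1 panel per gene with its own vertical axis from 0; points are single libraries and bars the 95% Poisson interval of the count. Notch3 and Notch4 stand out in mutant 1, at 8.99 and 3.13 CPM, while Dll1 and Dll4 differ widely among the wild-type libraries.

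Among the ligands Jag1 was the most abundant by counts, with 75.5% to 87.6% of the counts of the 4 ligand genes. Mutant 1 held 93.95 CPM of it, mutant 2 113.3 and mutant 3 121.7. The wild-type values were 75.96, 112.5 and 87.6 CPM. The groups overlapped, with wild type 2 between the mutants and wild type 1 lowest of all. Jag2, the other Jagged ligand, was at 20.6 CPM in mutant 1, 13.1 in mutant 2 and 13.2 in mutant 3, against 13.3, 11.2 and 11.6 CPM for the wild-type libraries. Mutant 1 was 1.55 times the highest other library (1.43 to 1.68 by the counting error of mutant 1), and the 5 other libraries differed by at most 1.19-fold.

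The Delta-like ligands were rare and varied within the groups. Mutant 1 held 208 counts of Dll4, mutant 2 held 61 and mutant 3 held 95. The wild-type libraries held 32, 72 and 120 counts, which gives 1.42 CPM in wild type 1 (0.97 to 2.01) and 4.81 CPM in wild type 3 (3.99 to 5.76), a 3.39-fold difference between libraries of one group that counting error did not cover. Dll1 had 97 counts in mutant 1, 37 in mutant 2 and 54 in mutant 3, against 31, 50 and 85 for the wild-type libraries, or 1.38 CPM in wild type 1 (0.94 to 1.95 by counting error) and 3.41 CPM in wild type 3 (2.72 to 4.22). For both genes wild type 1 was the lowest library, mutant 2 the next lowest, and mutant 1 and wild type 3 the highest pair. In all, 5 of the 8 genes (Notch1, Notch4, Jag1, Dll1 and Dll4) had their lowest CPM in wild type 1, against 25.5% of tested genes.

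Levels can be compared between genes per length. Divided by the length of the RefSeq-matched transcript, 3.58 kb for Dll1 to 10.5 kb for Notch2, the wild-type libraries held 16.4 ± 3.32 CPM per kb of Jag1 (SD, n = 3). Notch2 followed at 14.8 ± 0.82 and Notch1 at 11.8 ± 0.51 CPM per kb. Jag1 did not differ from Notch2 beyond its spread, while the wild-type ranges of Notch2 and Notch1 did not overlap, and in mutant 2 that order was turned (11.96 CPM per kb of Notch2, 13.4 of Notch1). Jag2 came next at 2.35 ± 0.22 CPM per kb, well below the first group. Dll4 at 0.81 ± 0.45 and Dll1 at 0.63 ± 0.29 CPM per kb overlapped each other. Notch3 at 0.152 ± 0.031 and Notch4 at 0.103 ± 0.034 CPM per kb were last, and their wild-type ranges also overlapped. In the mutant group the means gave the same order of the 8 genes. In mutant 1 alone, Notch3 stood above Dll1, at 1.12 against 0.88 CPM per kb.

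**Figure D2:**
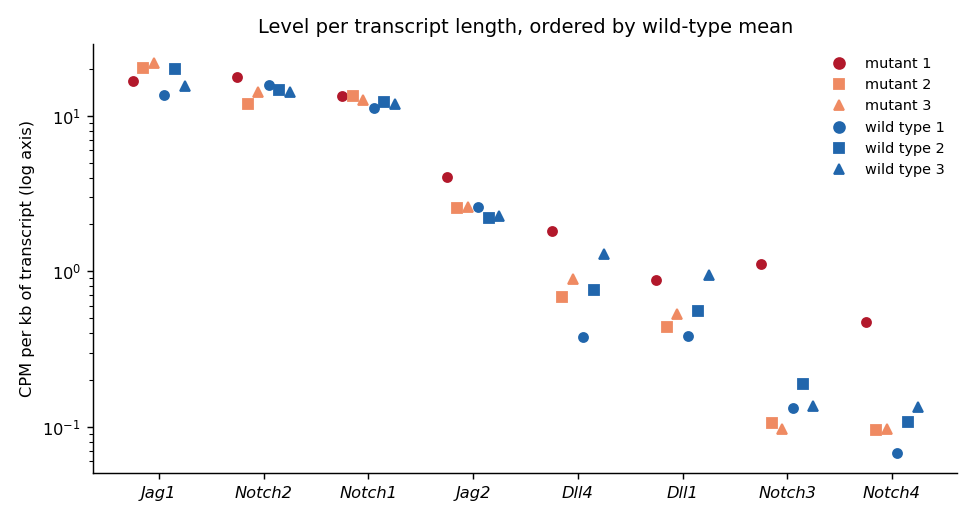
CPM per kb of transcript on a log axis for each gene, ordered by the wild-type mean; each point is 1 library, with colour for the group (dark red for mutant 1) and shape for the replicate number. Jag1, Notch2 and Notch1 lie between 11.3 and 21.7 CPM per kb in every library, and Notch3 and Notch4 lie below 0.19 CPM per kb in every library but mutant 1.

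Markers of vessel and other non-epithelial cells were set beside these genes, since Notch3, Notch4 and Dll4 are known from such cells. Of 15 endothelial markers, 14 were highest in mutant 1, and 11 exceeded every other library there by at least 5-fold. Their sum was 337.5 CPM in mutant 1, 202.3 and 222.8 CPM in mutants 2 and 3, and 192.6 to 203.3 CPM in the wild types, most of it from Esam, a junction protein gene that stood at 175.9 to 198.004 CPM in every library. Cdh5, the cadherin of endothelial junctions, reached 12.8 CPM in mutant 1 against 0.16 to 1.59 CPM in the other libraries. Flt1, Emcn, Cldn5, Sox17, Tal1 and Mmrn2 each had 0 counts in at least 1 of the other libraries, and none of the 15 was at 0 in all 6. Of 12 mural cell markers, 10 were highest in mutant 1, 6 of them by at least 5-fold. The mural sum was 29.6 CPM in mutant 1, 3.12 and 3.32 CPM in mutants 2 and 3, and 1.91 to 2.88 CPM in the wild types. Pdgfrb, a receptor of pericytes and fibroblasts, had 94 counts in mutant 1, 0 and 5 in mutants 2 and 3, and 0, 1 and 8 in the wild types. Of 10 fibroblast markers all were highest in mutant 1 and 8 were at least 5-fold higher there. The other two, Lum and Tcf21, had 20 and 16 counts in mutant 1 and 0 in the other 5 libraries, too few to place them past 5-fold over the floor. The fibroblast sum was 446.4 CPM there, 13.03 and 18.1 CPM in mutants 2 and 3, and 7.11 to 10.4 CPM in the wild types. Of 6 genes of all leukocytes, 5 passed the same fold. The sum of all 6 was 903.1 CPM in mutant 1, and 301.4 and 320.3 CPM in mutants 2 and 3. The wild types held 373.8 to 428.6 CPM. Outside mutant 1 most of this sum was Lcp1, the gene that did not pass, with 287.7 to 397.3 CPM. Its mutant 1 level, 400.7 CPM, was 1.01 times the highest of those. The 5 genes that passed exceeded their highest other library by 10.0-fold to 23.5-fold in mutant 1. Airway markers were higher there as well: the sum of club and goblet cell markers was 8909 CPM, with 487.2 to 799.2 CPM in the remaining libraries, and that of ciliated cell markers 226.1 CPM, with 62.6 to 80.8 CPM in the remaining libraries.

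Dll4 and Notch4 were also counted against Cdh5 in the same library. There were 0.53 Dll4 counts per Cdh5 count in mutant 1, 5.08 in mutant 2, 2.11 in mutant 3, and 2.91, 18.0 and 10.0 for the wild-type libraries. Notch4 gave 0.24 per Cdh5 count in mutant 1, 1.25 and 0.40 in mutants 2 and 3, and 0.91, 4.50 and 1.83 in the wild types. Cdh5 had 393 counts in mutant 1 but 4 to 45 in the others, so the ratios outside mutant 1 are imprecise. Since Cdh5 was picked with its excess in mutant 1 known, the low ratios there are a description only. The 20 to 38 Notch3 counts of the other libraries stood beside 0 to 8 Pdgfrb counts and 0 to 5 counts of Acta2, the smooth muscle actin gene. There were 2.94 Notch3 counts per Pdgfrb count in mutant 1, 4.40 in mutant 3, 3.38 in wild type 3 and 38 in wild type 2. The value of wild type 2 rests on 1 Pdgfrb count. Mutant 2 and wild type 1 had 0 Pdgfrb counts beside 20 and 24 Notch3 counts. Per Acta2 count there were 1.01 Notch3 counts in mutant 1, 4 in mutant 2, 11 in mutant 3 and 12 in wild type 1. Wild types 2 and 3 had 0 Acta2 counts. Such low marker counts leave the ratios outside mutant 1 imprecise. All the marker genes of this comparison were chosen after their values were seen.

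**Figure D3:**
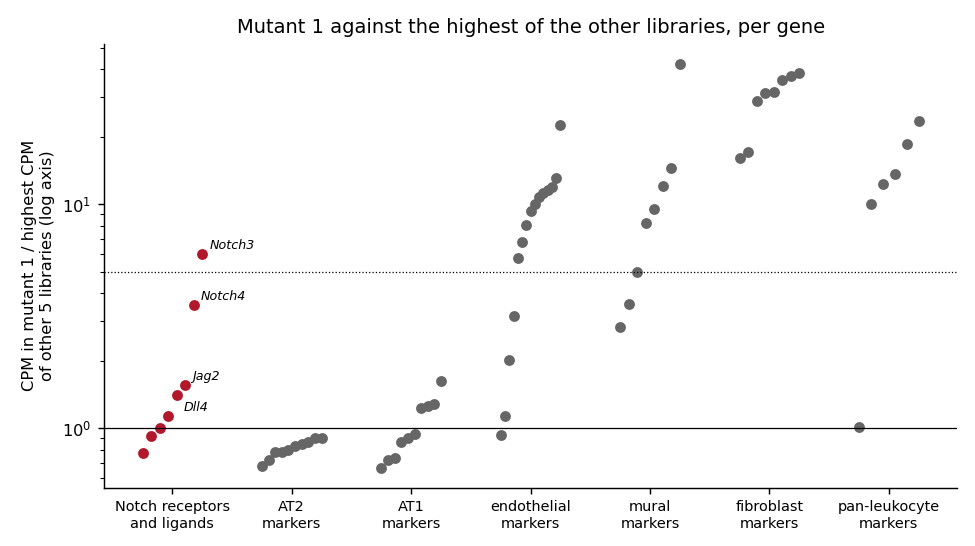
For each gene, the CPM in mutant 1 divided by the highest CPM of the other 5 libraries, on a log axis; red points are the Notch receptors and ligands, grey points marker genes with more than 3 counts in mutant 1 and a count elsewhere, and the dotted line marks 5-fold. Notch3 lies above 5-fold and Notch4 at 3.54-fold, Jag2 and Dll4 lie at 1.55 and 1.41, and the type II markers lie below 1.

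The study's title concerns Dlk1 and Notch signalling in lung repair, and the design sets the mutant against the wild-type group. None of the 8 genes passed edgeR's quasi-likelihood test at a Benjamini-Hochberg adjusted p of 5%, where 0% of the 12899 tested genes were called (849 genes, 6.58%, had an unadjusted p under 0.05, of them 3.69% of tested genes higher in the mutant and 2.89% lower, and 0 of the 8), and DESeq2 called 0.306% of genes but none of these. The adjusted p-values in edgeR ran from 0.739 for Jag2 to 0.972 for Dll1. Of the 8 log2 fold changes (mutant minus wild type) 6 were positive and 2 negative, with a median of 0.26, against 6587 positive and 6312 negative and a median of 0.00 over all tested genes. Notch1 was the 1 gene of the 8 whose groups did not overlap on the TMM-normalised scale, against 11.7% of all tested genes (5.23% with the mutant higher, as for Notch1, and 6.43% with it lower), so 1 in 8 is near the share over all genes.

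The precision differed between the genes. For Notch1 the log2 fold change was 0.10 ± 0.07 (SE), from 123.02 ± 5.12 in the mutant to 114.4 ± 4.15 TMM-normalised CPM in the wild-type group (SD, n = 3 each), and the 95% interval allowed fold changes of 0.96 to 1.21. For Notch2 it was -0.07 ± 0.12, with fold changes of 0.78 to 1.16 allowed. Jag1 had 0.21 ± 0.17 (0.87 to 1.53 as a fold) and Jag2 0.32 ± 0.18 (0.93 to 1.68). These 4 genes were measured tightly enough that a 2-fold change lay outside the interval. Dll4 had 0.41 ± 0.53 (0.56 to 3.15) and Dll1 -0.09 ± 0.46 (0.45 to 1.97), so that for Dll4 a doubling could not be told from no change. Notch3, at 1.43 ± 0.93 (0.59 to 12.4), and Notch4, at 1.02 ± 0.72 (0.63 to 6.57), had the largest estimates and the widest intervals. With the replicate number as a block they were 0.49 (-1.68 to 2.65) and 0.63 (-1.37 to 2.63). That block lowered the SE of Jag1 to 0.10 and of Jag2 to 0.14, with intervals of -0.04 to 0.46 and -0.04 to 0.64. It raised the SE of Notch4, Dll1 and Dll4 to 0.81, 0.51 and 0.59.

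Without mutant 1 the estimates that it carried turned. Notch3 changed from 1.43 to -0.60 (95% interval -1.78 to 0.58), Notch4 from 1.02 to -0.12 (-1.53 to 1.29) and Dll4 from 0.41 to -0.047 (-1.15 to 1.06). Jag2 fell from 0.32 to 0.12 and Dll1 from -0.09 to -0.39, while Notch2 went from -0.07 to -0.19. In the other direction Jag1 went from 0.21 to 0.34 (-0.01 to 0.68). Notch1 was 0.13, from 0.10. No gene of the 8 passed the test without mutant 1, with adjusted p-values from 0.819 to 0.989. The sign of Dll1 also turned without wild type 3 (0.33) and without mutant 2 (0.08), and leaving out wild type 3 moved Dll4 to 0.91.

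**Figure D4:**
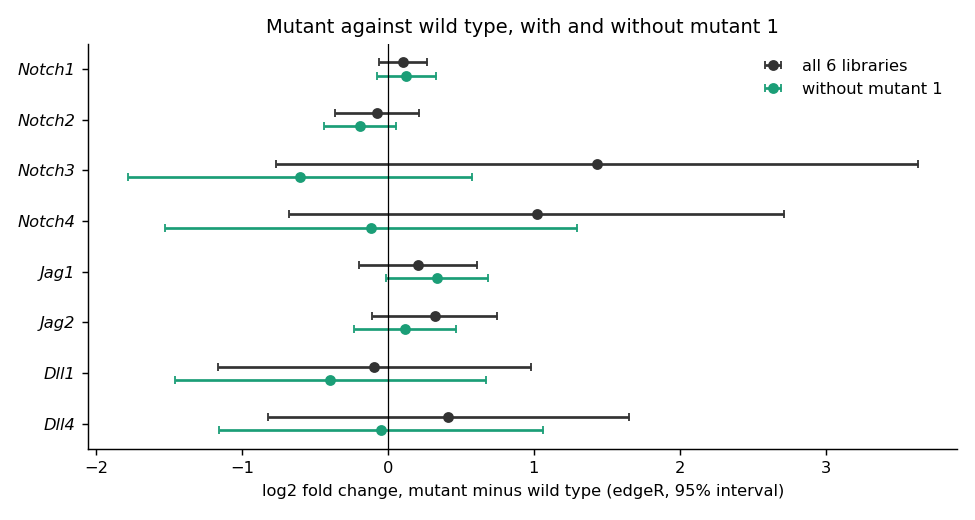
Log2 fold changes, mutant minus wild type, from edgeR with 95% intervals, for all 6 libraries (dark) and without mutant 1 (green). Every interval includes 0, and the estimates of Notch3, Notch4 and Dll4 lie above 0 with mutant 1 and below 0 without it.

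The rest of the pathway gives the setting of these genes. Of 55 other Notch pathway genes on the list 43 were tested, with 25 positive and 18 negative log2 fold changes, a median of 0.04 and 0 calls. Of the 43, 5 had an unadjusted p under 0.05, against 6.58% of all tested genes, and 8 had groups that did not overlap, against 11.7%. The ligand-like genes Dll3, Dlk1, Dlk2, Dner and Cntn1 had at most 5 counts in any library. Adam10, the protease that makes the first ligand-induced cut, had 0.32 ± 0.11 and Ncstn, a subunit of the γ-secretase that makes the second, 0.20 ± 0.06. Maml3, a coactivator of the nuclear complex, had -0.27 ± 0.08. These 3 genes had unadjusted p-values of 0.0138 to 0.0178 and an edgeR adjusted p of 0.737 each. Poglut1, whose enzyme adds glucose to Notch receptors, stood at -0.14 ± 0.14, and Psen2, of the γ-secretase catalytic subunits, at 0.24 ± 0.13. Among genes that act on ligand uptake, the ubiquitin ligase genes Mib1 and Mib2 had 0.06 ± 0.07 and -0.03 ± 0.10, and Epn2, an endocytic adaptor gene, -0.14 ± 0.08. Of the genes of receptor turnover, Dtx2 had -0.25 ± 0.11, Dtx4 -0.36 ± 0.20 and Numbl, related to the Notch inhibitor Numb, 0.33 ± 0.18. Spen, a corepressor bound by RBPJ, had 0.11 ± 0.07. Of the targets, Hes1, a transcriptional repressor, stood at 87.004 TMM-normalised CPM in the mutant and 106.2 in the wild-type libraries, with -0.29 ± 0.26. For Hes1 mutant 1 was the lowest library, at 59.3. Mutants 2 and 3, at 110.3 and 91.4, lay within the wild-type range of 78.8 to 133.8. Nrarp, a target that feeds back on the pathway, had 0.05 ± 0.31. Hey1, another repressor target, had 2.21 ± 1.08 with 65 counts in mutant 1 and 2 to 14 elsewhere.

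Some pathway genes outside the receptors and ligands were also high in mutant 1. The fringe gene Lfng, whose enzyme adds sugars that alter which ligands a receptor answers to, had 406 counts in mutant 1, 10 in mutant 2, 32 in mutant 3, and 7 to 12 in the wild-type group (log2 fold change 3.49 ± 1.23, edgeR adjusted p = 0.737). Its relative Mfng had 137 counts in mutant 1, 4 and 5 in mutants 2 and 3 and 0 in each wild type. Rfng, the remaining fringe gene, stood in mutant 1 at 0.90 times the highest other library on the TMM-normalised scale. Dtx1, a ubiquitin ligase gene of the pathway, had 127 counts in mutant 1 and 0 to 12 elsewhere. Heyl, a repressor known as a Notch target in smooth muscle, had 37 counts in mutant 1 and 0 in each of the other 5, which puts it at least 9.04-fold higher than the largest floor of 3 counts per library. Mfap5, a microfibril protein that can bind Notch1, had 36 counts in mutant 1 and at most 1 elsewhere. With Notch3, these were the genes of the 63 measured that were at least 5-fold higher in mutant 1. Only Notch3 and Lfng among them passed the filter for the group test. Over all genes that passed it 3.65% met the 5-fold rule, and the share among the remaining genes was not counted. The part of the other cells in these pathway genes was not tested.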

How the data were processed

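Gene counts from 6 mouse libraries (3 mutant, 3 wild type, grouped by sample title) were analysed. The deposited values are whole-number counts per gene symbol, 1 file per library, not normalized. Per the labels' protocols, RNA was isolated from sorted cells with a column kit and made into TruSeq mRNA libraries. Per the submitters' processing notes the build was mm9 and CASAVA and DESeq2 were used. The aligner, counter, annotation and strand handling were not given in the sources used here. Dll4 overlaps the RNA gene Gm14207 on the other strand, so reads of the pair may be shared. Library totals gave a 3-count floor of 0.0977 to 0.133 CPM.

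Genes passing filterByExpr (12899, at least 99.7% of each library's counts) had TMM factors computed and went into edgeR 4.0.16 (R 4.3.3; quasi-likelihood, group only, two-sided, Benjamini-Hochberg over all tested genes, 5%). Untested genes are described by counts. Lengths are GENCODE M21 transcripts matched to RefSeq. Alternatives were DESeq2 size factors, upper-quartile factors, other filters, DESeq2 1.42.0 and limma-voom with quality weights for the libraries (limma 3.58.1). Robust dispersion, a replicate block and leaving out each library were further alternatives. DESeq2 without mutant 1 was added after seeing the data. On counts simulated for this comparison (12899 genes, 5 runs) 19.2% of 1.5-fold, 56.0% of 2-fold and 78.8% of 4-fold changes were recovered. The changed genes were drawn from all levels, and each gene was simulated independently, with neither the state of mutant 1 nor pairs of libraries.

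Same-numbered libraries deviated together from their groups (correlations of 0.31, 0.21 and 0.17, each over the limit of 0.1), which meets the rule for pairs on the evidence of the data alone. The printed fits have no block unless one is named. Replicate pairs differed beyond sampling noise (chi-square 16.2 to 66.7 per degree of freedom). Of 120 marker genes, 118 were matched to the files, 3 of them through an older symbol. The genes and lists were chosen with earlier results of these data known. Named were the 8 genes, pathway genes with the smallest p (up to 3 per list) or at least 5-fold higher in mutant 1, and the 3 genes most correlated with each; others were chosen after their values were seen. Some genes that this rule names are not reported here.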

Additional observations from a re-analysis of the deposited data

How the results depend on the processing

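Of 119 fold changes of the 8 genes under the alternatives, 109 kept their sign and none passed the threshold. Leaving out 1 library gave log2 fold changes of 0.07 to 0.13 for Notch1, -0.19 to 0.029 for Notch2, -0.60 to 1.90 for Notch3, -0.12 to 1.36 for Notch4, 0.09 to 0.37 for Jag1, 0.12 to 0.41 for Jag2, -0.39 to 0.33 for Dll1 and -0.047 to 0.91 for Dll4. The sign turned for Notch3, Notch4 and Dll4 without mutant 1, in edgeR (-0.60, -0.12 and -0.047) and in DESeq2 (-0.60, -0.12 and -0.045; chosen after seeing the data), for Notch2 (0.029) and Dll1 (0.08) without mutant 2, and for Dll1 without wild type 3 (0.33). limma-voom with quality weights, which let libraries count unequally, gave Notch3 -0.21, and the cause was not tested. The number of genes called was 0 in 12 alternatives, among them the replicate block, which changed no call and moved Notch3 to 0.49 and Notch4 to 0.63; it was 46 in DESeq2, 22 in DESeq2 without mutant 1, and 0 to 1 (Gpr133) without single libraries. On the TMM-normalised scale mutant 1 was 0.93, 1.03, 0.72 and 1.41 times the highest other library for Notch1, Notch2, Jag1 and Jag2. At least 3-fold 2 of the 8 genes were high in mutant 1, and at least 10-fold 0. Notch4 was not tested with the filter of 1 CPM in 3 libraries. The 10 to 120 counts of Notch3, Notch4, Dll1 and Dll4 outside mutant 1 limit what these libraries can resolve.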

Other observations

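Set beside the wild type of the same number, Notch1, Jag1 and Jag2 were higher in the mutant at all 3 numbers on the TMM-normalised scale and 0 of the 8 genes were lower at all 3, against 15.3% and 15.6% of tested genes. That pairing comes from these data alone. The largest of these differences for Jag2 was at number 1, with 19.3 against 13.7 TMM-normalised CPM, and for Jag1 at number 3, with 121.6 against 88.9.

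Gm14207, the RNA gene that overlaps Dll4 on the other strand in GENCODE M21, had 46, 15 and 21 counts in mutants 1, 2 and 3 and 4, 10 and 20 in the wild types. It was highest in mutant 1 and lowest in wild type 1, as Dll4 was. There were 4.07 to 8.0 Dll4 counts per Gm14207 count, and with strand handling not given the reads of the pair cannot be told apart.

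The genes whose log2 levels followed each member most closely over the 6 libraries, among 12898 others, all had a Pearson r of at least 0.978, and 1 of the 24 was named again over the 5 libraries without mutant 1 (Ppp2ca, a phosphatase subunit, for Jag1). Jag2 was followed most closely by Arhgdib, Alas2 and Myo1f, known from blood cells and each at least 5-fold higher in mutant 1. Notch4 was followed by Gpc3, Col1a2 and Stk17b, of which Col1a2, a fibrillar collagen gene, was also 5-fold higher there. Notch3 was followed by Iqcg (5-fold higher there too) and Grk6, Notch1 by Glmn, Ccdc73 and 2610044O15Rik, Notch2 by Hr, Fhit and 5830415F09Rik, Dll1 by Cct8, AW146020 and Hjurp, and Dll4 by Glud1, Mprip and Btbd11. The libraries share depth and the state of mutant 1, so these are descriptions of 6 points.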
